A study of Mus musculus with 12 samples.

Results

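Olaparib alone was compared with vehicle in 3 tumors against 3, out of 12 tumors in 4 groups. All were K14-Cre;Brca1f/f;Trp53f/f tumors, a model of triple negative breast cancer, in which Cre under the keratin 14 promoter removes Brca1 and Trp53 from epithelial cells. The tumors were grown from transplanted pieces in the mammary fat pad of syngeneic female FVB/129P2 mice, so that both groups carried the same deletions in their tumor cells, and the RNA also holds that of host cells. Olaparib tumors (numbers 1510, 1517 and 1521) came from mice given olaparib intraperitoneally at 50 mg/kg daily, and vehicle tumors (1269, 1529 and 1536) from mice given DMSO in saline. Both groups also received 1 intratumoral injection of 40 μl saline, and the tumors were taken and snap-frozen after 3 days. The tumors of the other two groups, given the STING agonist ADUS100 with or without olaparib, entered the estimate of the spread and the filter on low values. Messenger RNA was counted with the nCounter mouse panel of cancer immune genes, on which barcoded probes are hybridized to RNA and counted without amplification. Of the 750 genes in the table, 689 reached a value of 20 in 3 or more of the 12 tumors and were tested, and 61 were not. Of the 689, 86 had fewer than 3 of these 6 tumors at that value and were kept through the other groups. The labels number the tumors but do not say whether the transplanted pieces came from 1 donor tumor, so p-values here measure only the spread between these tumors.

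Olaparib inhibits PARP enzymes, which repair single-strand DNA breaks, and cells without BRCA1 cannot repair the damage that follows by homologous recombination. DNA that reaches the cytosol is sensed by cGAS, which activates STING. STING then recruits the kinase TBK1, which activates IRF3, the factor that switches on interferon beta, and it also activates NF-kB. NF-kB is held in the cytosol by the inhibitor IkBα, the product of Nfkbia, which NF-kB itself induces, so that Nfkbia is a feedback gene of the pathway. Secreted interferons act through their receptors on a set of antiviral genes and on the chemokines Cxcl9, Cxcl10 and Cxcl11. The comparison asks which of these genes, and which genes of stroma and immune cells, differed in tumors given the PARP inhibitor without the STING agonist.

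The olaparib tumors differed widely in depth, and tumor 1517 stood apart. Recovered counts summed to 480055 in tumor 1510, 106206 in tumor 1517 and 1392128 in tumor 1521, against 632152 to 1519471 in the vehicle tumors. One count was worth a value of 10.5 in tumor 1517, 1.95 in tumor 1510 and 0.589 in tumor 1521. In tumor 1517, 333 of the 750 genes had at most 20 counts and 216 had fewer than 10. The most abundant gene of the other 11 tumors was Lcn2, a lipocalin made by epithelium and neutrophils, whereas in tumor 1517 it was the apolipoprotein gene Apoe. Over the genes tested, tumor 1521 correlated with vehicle tumor 1269 at r = 0.981, while tumor 1517 correlated with the other 5 tumors at r = 0.750 to 0.876. These correlations are across genes of single tumors and describe them without a test. The epithelial label was borne out by Epcam and Cdh1, the genes of epithelial adhesion molecules, which had at least 4580 and 3997 normalized counts in each of the 6 tumors. Trp53 was counted in all 6 tumors (289 to 3930), and since the place of its probe is not given and host cells are in the tissue, this checks no label. Brca1 was not analysed here.

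No gene passed an adjusted p of 0.05 in limma, which is 0.0% of the 689 genes tested, and the smallest adjusted p was 0.577. At an unadjusted p under 0.05 there were 40 genes with a higher mean in olaparib tumors (5.81%) and 10 with a lower one (1.45%). Below, p under 0.05 means this unadjusted limma p. The edgeR quasi-likelihood test on recovered counts also made 0 calls after adjustment, with 73 genes higher and 11 lower at unadjusted p with the authors' factors and 38 and 16 with TMM scaling. All 3 olaparib tumors lay above all 3 vehicle tumors for 26 genes (3.77%) and below them for 7 (1.02%), together 4.79%. The fitted difference was above 0 for 514 genes (74.6%), and its median over all genes was 0.45 on the log2 scale. That median was 0.10 after the tumors were brought to a common median (median scaling), which draws it toward 0 by construction, 0.02 in edgeR with TMM scaling, 0.09 without tumor 1517 and 0.81 without tumor 1521. List medians below are to be read against these medians of all genes, and counts of list members against 74.6%, 5.81% and 1.45%. In the alternatives run, the median kept its sign in all of them for 11 of the 25 gene lists used below and changed it in at least 1 for the other 14. Leaving out 1 tumor moved the list median by over 1.5 times for 24 of the 25 lists, among them 21 without tumor 1517 and 20 without tumor 1521. Of 64 genes named below whose difference exceeded its standard error, 21 had a difference smaller by over 1.5 times without tumor 1510, 21 without tumor 1517 and 0 without tumor 1521. A difference larger by over 1.5 times was found for 0 without tumor 1510, 3 without tumor 1517 and 17 without tumor 1521. All differences are on the scale of log2(value + 1), olaparib minus vehicle. The added 1 shrinks differences of low genes, but 1 count is worth 10.5 in tumor 1517 and 0.682 to 1.49 in vehicle tumors. Differences of low genes can therefore come out too large as well as too small. With a common floor of 5 counts of tumor 1517 for all tumors, the median of all genes was 0.24. The values below run in the order of tumors 1269, 1529 and 1536 for vehicle and 1510, 1517 and 1521 for olaparib.

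**Figure D1:**
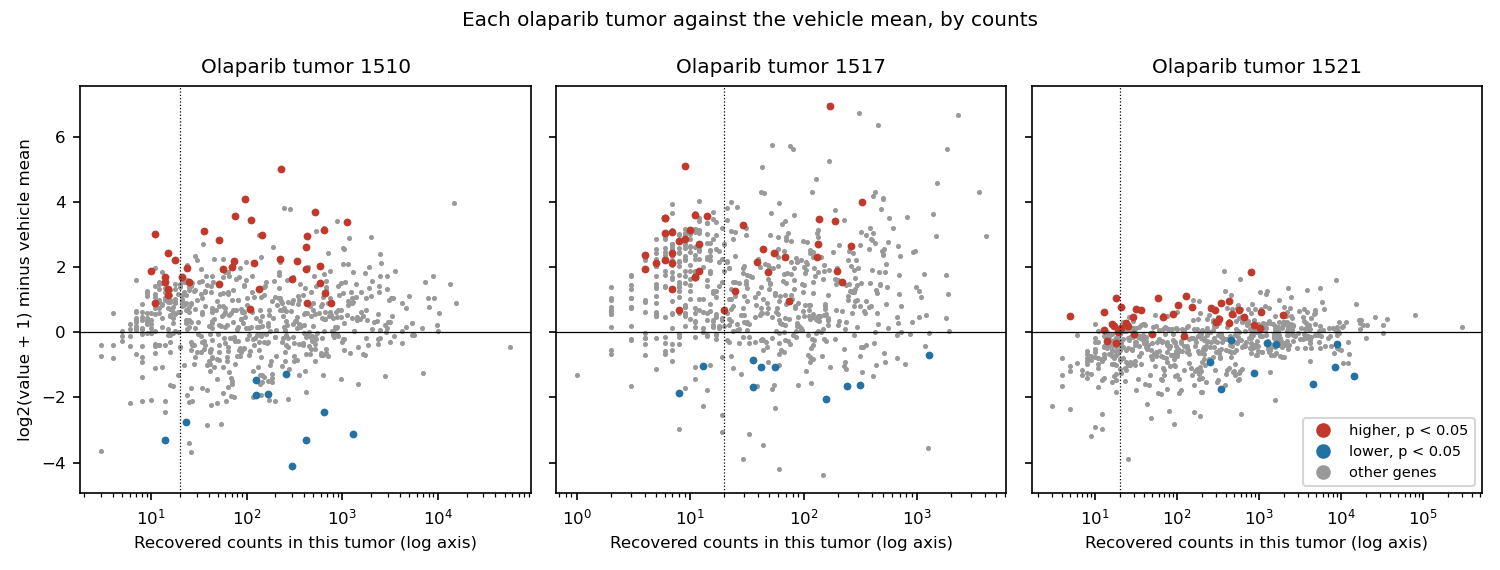
Difference of each olaparib tumor from the vehicle mean, on the log2(value + 1) scale, against the recovered counts of the gene in that tumor (log axis). Each point is 1 of 689 genes, red and blue points are the 40 higher and 10 lower genes at unadjusted p under 0.05, and the dotted line marks 20 counts. The higher genes lie above 0 in tumors 1510 and 1517 and nearer to 0 in tumor 1521. In tumor 1517, 22 of the 40 lie left of the dotted line, beside 267 of all 689 genes.

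The 40 higher genes did not rest on the 3 olaparib tumors alike. All 40 were above the whole vehicle range in tumor 1510 and in tumor 1517, and 15 were in tumor 1521. The shares of all 689 genes above it were 43.0%, 68.4% and 10.7% in tumors 1510, 1517 and 1521. In tumor 1517, 15 of the 40 had fewer than 10 counts and 22 fewer than 20, beside 157 and 267 of all 689 genes. Without tumor 1517 the difference kept its sign for all 40, beside 514 of all 689 genes, and 14 still had p under 0.05 in the higher direction. The 40 were picked by their values in these same tumors, so the kept sign is no separate check. Over the 396 genes with at least 20 counts in each of the 6 tumors, 18 were higher (4.55%) and 9 lower (2.27%) at unadjusted p under 0.05 in a fit of their own, and 269 differences were above 0 (67.9%). Of the 10 lower genes, 8 had at least 20 counts in each of the 6 tumors, and 7 had p under 0.05 in the lower direction without tumor 1517.

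The smallest p of the comparison was that of an NF-kB feedback gene. Nfkbia, which encodes IkBα, had 302, 357 and 201 normalized counts in vehicle tumors and 1148, 1383 and 385 in olaparib tumors. The groups did not overlap, but tumor 1521 exceeded the highest vehicle tumor only narrowly. The fitted difference was 1.60 ± 0.48 (SE; 3.04-fold), with an adjusted p of 0.577 in limma. It was 1.25 without the shallow tumor 1517, where the gene had 132 counts, and 2.17 without tumor 1521, where it passed with an adjusted p of 0.0126.

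The promoter of Nfkbia is shown with those of the interferon-inducible genes Cxcl10 and Rsad2, since the higher genes include targets of both pathways. The windows are the 250 bases before the RefSeq start of each gene (build GRCm38.p6, minus strand, written along the gene), at chr12:55492648-55492897, chr5:92348890-92349139 and chr12:26456453-26456702. Capitals mark matches, on either strand, to the kB letters (GGGA, any 4 bases, CC) and to the letters of the interferon response element (TTTC, any 2 bases, TTTC). The matches do not overlap each other.
Nfkbia: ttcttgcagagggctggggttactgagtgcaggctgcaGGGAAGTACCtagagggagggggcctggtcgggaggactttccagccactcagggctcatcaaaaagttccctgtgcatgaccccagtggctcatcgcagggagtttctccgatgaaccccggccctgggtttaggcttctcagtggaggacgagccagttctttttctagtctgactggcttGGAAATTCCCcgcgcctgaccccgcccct
Cxcl10: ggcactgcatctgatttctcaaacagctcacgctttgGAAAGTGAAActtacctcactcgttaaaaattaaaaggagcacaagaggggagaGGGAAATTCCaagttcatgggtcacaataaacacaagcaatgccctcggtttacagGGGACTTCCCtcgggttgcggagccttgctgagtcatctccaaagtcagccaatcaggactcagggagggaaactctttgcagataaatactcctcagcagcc
Rsad2: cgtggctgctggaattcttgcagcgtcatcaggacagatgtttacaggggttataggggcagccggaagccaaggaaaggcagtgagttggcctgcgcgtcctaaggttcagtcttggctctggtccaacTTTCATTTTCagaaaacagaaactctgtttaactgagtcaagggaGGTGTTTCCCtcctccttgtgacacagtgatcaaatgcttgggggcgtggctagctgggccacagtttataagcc
Nfkbia held 2 kB matches, and no interferon response element was found in this window. Cxcl10 held 2 kB matches and 1 interferon response element, and Rsad2 held 1 of each. Among the 27025 genes with a RefSeq window of this length, 17.3% held the kB letters and 3.04% those of the interferon response element. Among the 508 tested genes with such a window the shares were 26.4% and 7.87%. A match describes the letters of the window and not the binding of a factor in these tumors.

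Among subunits of NF-kB and the kinases upstream, 9 of 10 genes had a higher mean in olaparib tumors (74.6% of all genes had) and 3 had p under 0.05 (5.81% of all genes had), with a median difference of 0.56. That median was 0.21 after median scaling, 0.30 after quantile normalization and 0.09 in edgeR with TMM scaling, beside 0.10, -0.01 and 0.02 for all genes. Without tumor 1517 it was 0.44, beside 0.09, and without tumor 1521 it was 0.86, beside 0.81. Relb, a subunit of the non-canonical pathway, had 474, 455 and 305 normalized counts in vehicle tumors and 1148, 786 and 627 in olaparib tumors (log2 difference 1.03 ± 0.37, adjusted p = 0.577). Nfkb1, the p105/p50 gene, had 729, 1045 and 651 against 1492, 2305 and 1141 (0.99 ± 0.38, adjusted p = 0.577). For both genes every olaparib tumor was above every vehicle tumor. Nfkb2, the p100/p52 gene and itself an NF-kB target, had 485, 785 and 461 against 1292, 2054 and 609 (1.07 ± 0.46, adjusted p = 0.582). Here tumor 1521 fell within the vehicle range. The subunit gene Rela differed least of these, by 0.51 ± 0.34 (adjusted p = 0.614). The 10 genes all had at least 20 counts in each tumor.

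Of the 6 feedback inhibitors, all had a higher mean and 1, Nfkbia, had p under 0.05. Their median of 0.47 lay beside the 0.45 of all genes. It was 0.13 after median scaling, 0.17 after quantile normalization and 0.08 in edgeR with TMM scaling, beside 0.10, -0.01 and 0.02 for all genes. Without tumor 1517 it was 0.41, beside 0.09, and without tumor 1521 it was 0.65, beside 0.81. With a weight estimated for each tumor it was 0.80, beside 0.46. Tnfaip3, which encodes the ubiquitin-editing inhibitor A20 and is induced by NF-kB, went with Nfkbia in some tumors only. It had 780, 522 and 375 normalized counts in vehicle tumors and 1307, 252 and 653 in olaparib tumors (0.16 ± 0.54, adjusted p = 0.933). Tumor 1510 was the highest of the 6 tumors and tumor 1517 the lowest, with 24 counts, and the sign of the difference depended on the tumors, at 0.79 without tumor 1517, -0.40 without tumor 1510 and -0.18 after median scaling.

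Cytokines and adhesion molecules that NF-kB induces gave 16 of 20 genes with a higher mean, a share near the 74.6% of all genes. There were 3 with p under 0.05 (beside 5.81% of all genes). The median of 0.58 fell to 0.23 after median scaling and 0.14 in edgeR with TMM scaling, beside 0.10 and 0.02 for all genes. It fell to 0.13 with a common floor of 5 counts of tumor 1517 for all tumors and 0.02 after quantile normalization, beside 0.24 and -0.01. Without tumor 1517 it was 0.49, beside 0.09, and without tumor 1521 it was 0.79, beside 0.81. Tnf, the inflammatory cytokine that activates NF-kB, had 71.6, 44.6 and 43.6 normalized counts in vehicle tumors and 232, 83.8 and 89.6 in olaparib tumors (1.20 ± 0.48, adjusted p = 0.582). The groups did not overlap, and the value in tumor 1517 rested on 8 counts. The difference in Tnf was 0.73 without tumor 1510, 1.46 without tumor 1517 and 0.46 after quantile normalization. The chemokine gene Ccl4 (1.47 ± 0.66, adjusted p = 0.582) also rested on 8 counts there, and Csf2, the gene of a myeloid growth factor (1.26 ± 0.55, adjusted p = 0.582), on 7. Ccl3 did not reach p under 0.05 (1.39 ± 0.65, adjusted p = 0.582). In tumor 1517, 11 of the 20 genes of this list had fewer than 10 counts. Of 10 immediate-early genes and MAPK feedback genes, 7 had a higher mean and 0 had p under 0.05, and their median of 0.46, beside 0.45 of all genes, was 0.27 without tumor 1517 and 0.80 without tumor 1521. Fos, the gene of an AP-1 subunit, had 3340, 1374 and 1191 against 5781, 9673 and 1354 normalized counts (1.26 ± 0.68, adjusted p = 0.582). Tumor 1521 lay within the vehicle range for Fos.

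**Figure D2:**
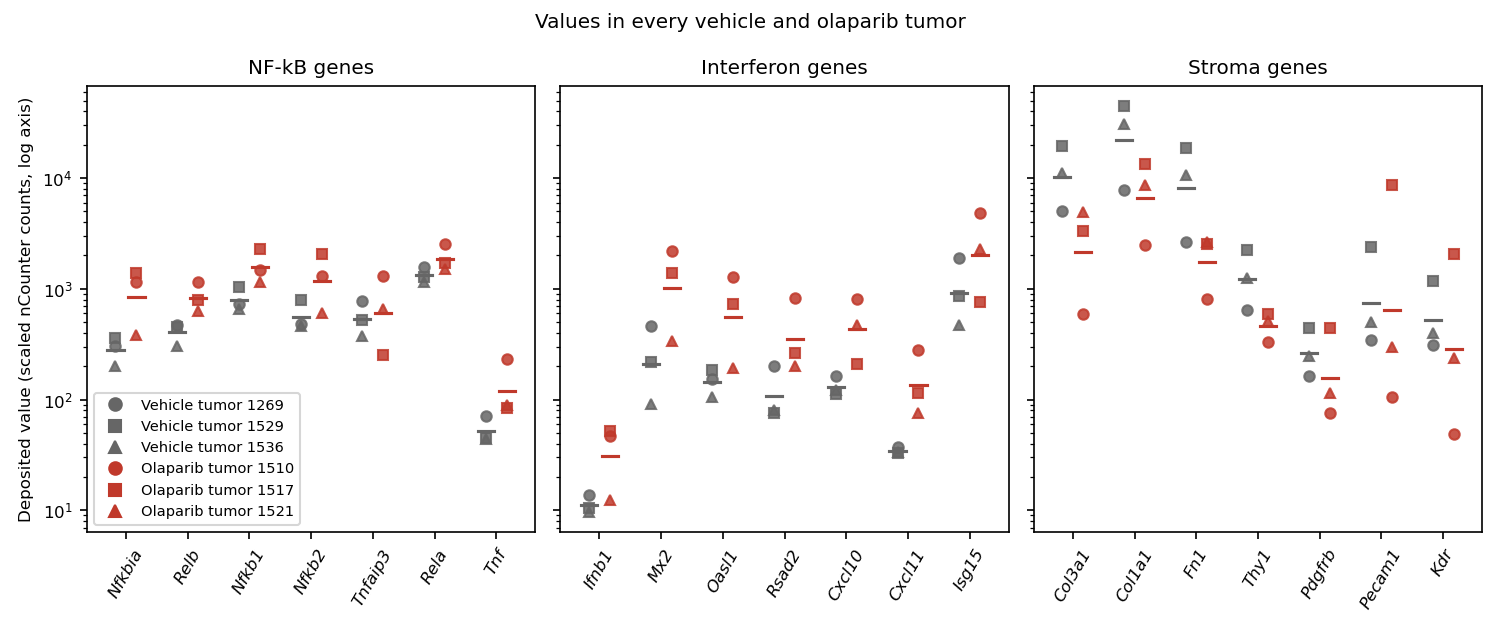
Normalized counts (log axis) of NF-kB, interferon and stroma genes in each of the 3 vehicle tumors (gray) and 3 olaparib tumors (red), with a marker shape per tumor and a bar at the geometric mean of each group. Nfkbia, Relb, Nfkb1, Tnf, Oasl1, Cxcl10 and Cxcl11 show no overlap upward and Col3a1 and Thy1 none downward, and the endothelial genes Pecam1 and Kdr are spread most widely within the olaparib group.

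Interferon-stimulated effectors mostly had higher means. Of 31 genes, 30 had a higher mean in olaparib tumors (beside 74.6% of all genes), with a median difference of 0.9998 beside 0.45 over all genes. There were 6 with p under 0.05 (19.4% of the list beside 5.81% of all genes) and 6 with all olaparib above all vehicle tumors (3.77% of all genes), and 27 of the 31 had at least 20 counts in each of the 6 tumors, where the median was 0.93 beside 0.29 for all 396 such genes. The list median was 0.65 after median scaling and 0.67 after quantile normalization, beside 0.10 and -0.01 for all genes. In edgeR with TMM scaling it was 0.48, beside 0.02, and with a weight estimated for each tumor 1.69, beside 0.46. Without tumor 1517 it was 1.16, beside 0.09, while leaving out a vehicle tumor gave 0.64 (without 1536) to 1.52 (without 1269), beside 0.34 and 0.33.

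Mx2, a GTPase that restricts viruses, had the largest of the named effector differences. It had 462, 217 and 92.1 normalized counts in vehicle tumors and 2194, 1394 and 340 in olaparib tumors (log2 difference 2.26 ± 0.83, adjusted p = 0.577). Tumor 1521 lay below vehicle tumor 1269. Oasl1, an inhibitor of IRF7 translation from the oligoadenylate synthetase family, had 152, 186 and 105 against 1270, 723 and 192 (1.96 ± 0.76, adjusted p = 0.577), without overlap but with tumor 1521 just above the vehicle range. Rsad2, the gene of the antiviral enzyme viperin, had 202, 75.8 and 81.0 against 834, 262 and 201 (1.71 ± 0.58, adjusted p = 0.577). Tumor 1521 and vehicle tumor 1269 had nearly the same value.

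The CXCR3 ligands, chemokines that attract activated T cells, separated the groups in all 6 tumors. Cxcl10 had 162, 112 and 123 normalized counts in vehicle tumors and 810, 210 and 473 in olaparib tumors (1.72 ± 0.74, adjusted p = 0.582). Cxcl11 had 37.5, 32.7 and 33.9 against 283, 115 and 76.0 (1.94 ± 0.72, adjusted p = 0.577). Cxcl9 had 80.5, 81.8 and 26.3 against 140, 210 and 110 (1.39 ± 0.84, adjusted p = 0.582). For Cxcl10 and Cxcl11 tumor 1521 was clearly outside the vehicle range, unlike for Mx2 and Rsad2. In tumor 1517 the 3 genes rested on 20, 11 and 20 counts. Among effectors named whatever their value, Isg15, a ubiquitin-like protein, had 1910, 852 and 472 against 4859, 765 and 2275 (1.15 ± 0.76, adjusted p = 0.59), with the groups overlapping.

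Interferon genes themselves were at the lower end of the panel. All 5 tested had a higher mean, with a median of 1.27, and 2 had p under 0.05, beside 74.6% and 5.81% of all genes. The median was 0.60 without tumor 1517 and 2.06 without tumor 1521, 0.43 after quantile normalization, 0.55 with the scaling factor as a covariate and 0.16 with the common floor. Ifnb1, interferon beta, had 13.6, 10.4 and 9.70 normalized counts in vehicle tumors and 46.8, 52.4 and 12.4 in olaparib tumors (1.42 ± 0.54, adjusted p = 0.577). These values stand for 24, 5 and 21 counts in the olaparib tumors, and tumor 1521 lay within the vehicle range. Ifna1, a member of a family of near-identical interferon alpha genes that a probe may not tell apart, had 5.46, 11.9 and 9.70 against 27.3, 115 and 10.02 (1.78 ± 0.74, adjusted p = 0.582). Ifng, the interferon of T cells and NK cells, did not pass the filter and had 8, 4 and 5 counts in the olaparib tumors. Without tumor 1521, Ifnb1 had an adjusted p of 0.0250 and Ifna1 of 0.0448. No list member other than Ifng was left out, and 4 of the 5 tested had fewer than 10 counts in tumor 1517.

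Of 16 receptors and signal transducers of interferon, 13 had a higher mean (beside 74.6% of all genes) and 0 had p under 0.05. Their median of 0.35 lay below the 0.45 of all genes, but above it among genes with at least 20 counts in each tumor (0.38 beside 0.29), with the common floor (0.35 beside 0.24) and without vehicle tumor 1269 (0.39 beside 0.33) or olaparib tumor 1510 (0.51 beside 0.49). It was -0.05 without tumor 1517, where 6 of the 16 were higher. Irf7, the factor that amplifies interferon alpha, overlapped broadly (0.71 ± 0.90, adjusted p = 0.761). Tyk2, a kinase of the interferon alpha receptor, had 256, 563 and 285 against 2057, 1897 and 198 (1.41 ± 0.77, adjusted p = 0.582), so that tumor 1521 was the lowest of the 6.

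The STING and nucleic acid sensing genes gave 12 of 14 with a higher mean (beside 74.6% of all genes), 0 with p under 0.05 and a median of 0.51, beside 0.45. The median was 0.17 without tumor 1517, beside 0.09, and 0.76 without tumor 1521, beside 0.81. It was 0.16 after median scaling and 0.08 after quantile normalization, beside 0.10 and -0.01, and 0.0049 in edgeR with TMM scaling. Tmem173, which encodes STING, had 498, 544 and 533 normalized counts in vehicle tumors and 793, 713 and 496 in olaparib tumors (0.32 ± 0.36, adjusted p = 0.752). Ikbke, a kinase related to TBK1 that is also in the NF-kB list, had 438, 560 and 256 against 1453, 1331 and 315 (1.09 ± 0.63, adjusted p = 0.582). Ccl5, a chemokine downstream of IRF3 and NF-kB, had 207, 75.8 and 51.3 against 222, 83.8 and 225 (0.79 ± 0.70, adjusted p = 0.686). For each of the 3 genes the groups overlapped.

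**Figure D3:**
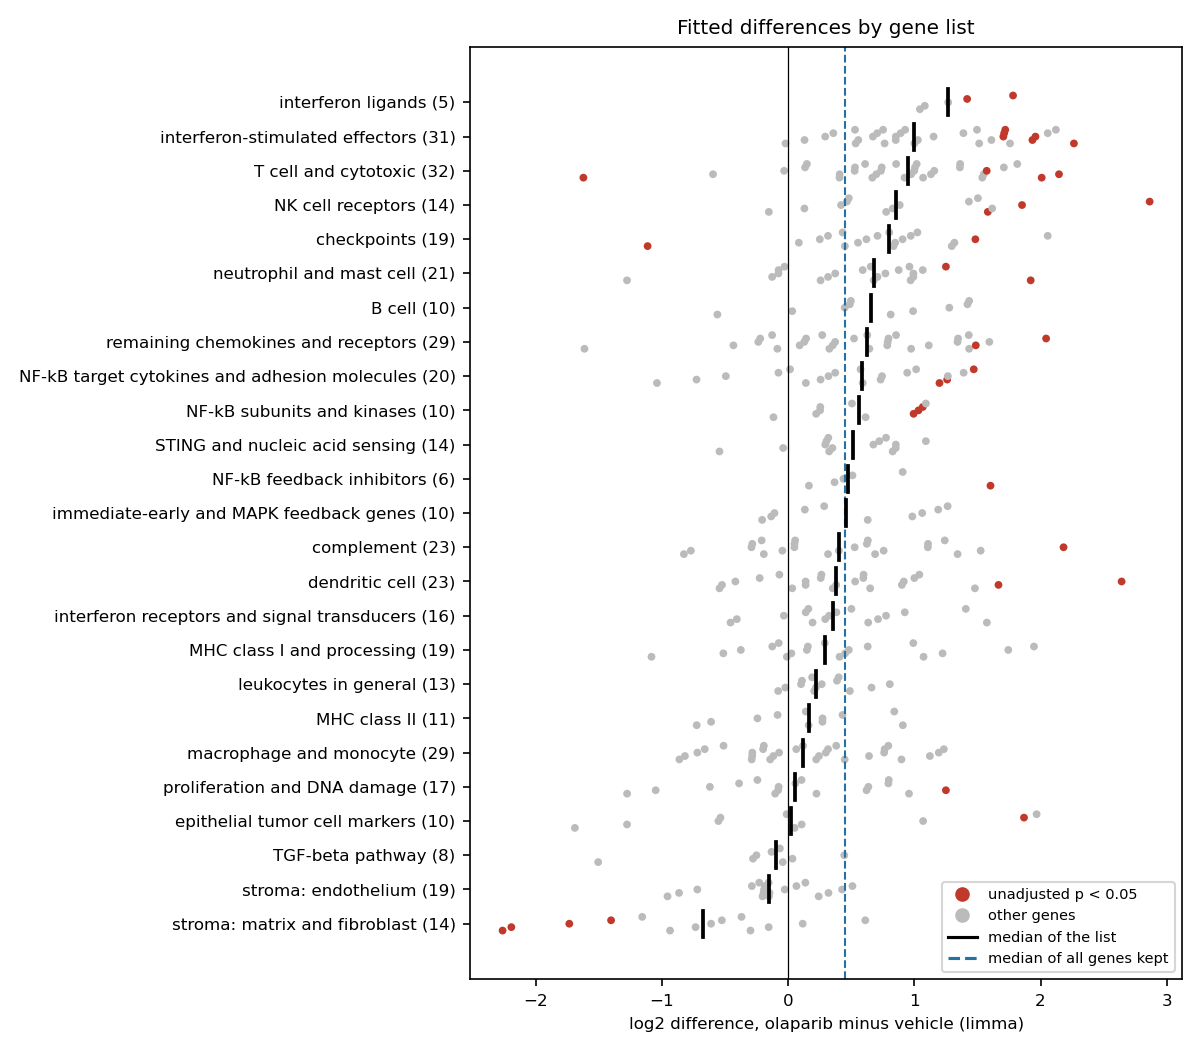
Fitted log2 differences, olaparib minus vehicle, of the genes of 25 lists, ordered by list median. Each point is a gene (23 genes stand in more than 1 list), red where the unadjusted p is under 0.05, the black bar is the list median, the dashed line is the median of all genes (0.45), and the number tested is in parentheses. Interferon ligands (1.27) and effectors (0.9998) have the highest medians and matrix and fibroblast genes (-0.67) the lowest.

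Matrix and fibroblast genes mostly had lower means, though not through all 3 olaparib tumors. The list median of the difference from the vehicle mean was -1.83 in tumor 1510 and -1.17 in tumor 1521, but 0.63 in tumor 1517. Over all genes it was 0.41, -0.25 and 1.28 in these tumors. Of 14 genes, 12 had a lower mean in olaparib tumors, with a median of -0.67 beside 0.45, and 4 had p under 0.05 (28.6% of the list beside 1.45% of all genes). The median was -0.29 without tumor 1510, where 5 of the 14 were higher, and -1.52 without tumor 1517. Without vehicle tumor 1269 it was -1.11 and without 1529 -0.39. In bulk RNA, fewer cells of a type and less RNA per cell cannot be told apart. Col3a1, the gene of type III collagen, had 4991, 19274 and 11093 normalized counts in vehicle tumors and 588, 3322 and 4923 in olaparib tumors (log2 difference -2.26 ± 0.74, adjusted p = 0.577). The highest olaparib tumor was just under the lowest vehicle tumor. Fn1, fibronectin, had 2658, 18645 and 10601 against 809, 2547 and 2661 (-2.19 ± 0.73, adjusted p = 0.577), with tumor 1521 level with vehicle tumor 1269.

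Col1a1, the main chain of type I collagen, had 7802, 44394 and 30532 normalized counts in vehicle tumors and 2498, 13393 and 8575 in olaparib tumors (-1.73 ± 0.74, adjusted p = 0.582). Thy1, a surface protein of fibroblasts and T cells, had 650, 2257 and 1257 against 329, 587 and 513 (-1.40 ± 0.51, adjusted p = 0.577), without overlap. Vehicle tumor 1269 was the lowest of its group for all 4 genes. Pdgfrb, a receptor of fibroblasts and pericytes, had 164, 443 and 247 against 76.0, 440 and 115 (-0.73 ± 0.65, adjusted p = 0.684). Tumor 1517 reached the highest vehicle tumor for this gene. Col3a1, Fn1, Col1a1 and Thy1 had at least 56 counts in tumor 1517, and their differences were -2.58, -2.46, -2.25 and -1.57 without it.

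Endothelial genes did not share one direction across the olaparib tumors. Of 19 genes, 12 were below the whole vehicle range in tumor 1510 and 11 in tumor 1521, whereas 18 were above it in tumor 1517. Of all genes, 16.5% and 27.3% were below it in tumors 1510 and 1521, and 68.4% were above it in tumor 1517. The list median was -0.15 with all tumors (beside 0.45 of all genes), -1.56 without tumor 1517 and 0.62 without tumor 1510, and 0 genes had p under 0.05. Pecam1, the endothelial adhesion molecule CD31, had 346, 2359 and 500 normalized counts in vehicle tumors and 105, 8625 and 300 in olaparib tumors (-0.19 ± 1.35, adjusted p = 0.967). Kdr, the main VEGF receptor, had 308, 1186 and 400 against 48.7, 2054 and 238 (-0.86 ± 1.08, adjusted p = 0.76). Nrp1, its co-receptor, had 365, 1439 and 554 against 50.7, 2725 and 283 (-0.96 ± 1.12, adjusted p = 0.755).

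Tumor 1517 also stood apart in genes outside the endothelial list, of which Cfd and Cd36 were chosen after their values were seen. Cfd, known as adipsin, a product of fat cells, had 61.4, 3144 and 63.7 normalized counts in vehicle tumors and 337, 23851 and 14.7 in olaparib tumors. Cd36, a fatty acid transporter of fat cells, endothelium and macrophages, had 79.1, 3590 and 195 against 136, 19104 and 53.6. Vehicle tumor 1529 was the highest of its group for both, as it was for Pecam1. Lcn2 and Spp1, the osteopontin gene, were lowest in tumor 1517, at 13099 and 1561 against 111497 to 217625 and 13772 to 63717 in the other 5 tumors. The part of these differences in the olaparib comparison was not tested.

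Of 8 TGF-beta pathway genes, which include the ligands that induce collagen, 6 had a lower mean and 0 had p under 0.05 (median -0.10, beside 0.45 of all genes). The median was -0.45 after median scaling, -0.41 after quantile normalization and -0.50 in edgeR with TMM scaling, -0.02 without tumor 1510 and -0.22 without tumor 1521. Tgfb2 had 4183, 2562 and 2575 normalized counts in vehicle tumors and 1227, 346 and 2830 in olaparib tumors (-1.51 ± 0.70, adjusted p = 0.582). Only tumor 1521 was within the vehicle range.

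Genes of T cells and cytotoxic lymphocytes had 29 of 32 higher means (beside 74.6% of all genes) and a median of 0.95. At p under 0.05, 3 were higher and 1 lower (9.38% and 3.12%, beside 5.81% and 1.45% of all genes). Most were low: 21 of the 32 had fewer than 10 counts in tumor 1517, and 2 had at least 20 counts in each tumor. Their list median was 0.16 after quantile normalization, 0.09 with the common floor, 0.04 with the scaling factor as a covariate, 0.28 without tumor 1517 and 1.61 without tumor 1521. Cd4, the helper T cell co-receptor, had 30.01, 49.1 and 25.6 normalized counts in vehicle tumors and 138, 126 and 60.7 in olaparib tumors (1.57 ± 0.52, adjusted p = 0.577), without overlap and with 12 counts in tumor 1517. Cd160, a receptor of NK cells and cytotoxic T cells, had 7.50, 4.46 and 2.77 against 19.5, 62.9 and 10.6 (2.15 ± 0.67, adjusted p = 0.577). It stood for 10, 6 and 18 counts in the olaparib tumors, and only tumor 1517 of these 6 reached the filter value of 20.

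Fasl, the death ligand of cytotoxic cells, was likewise low, with 18, 6 and 21 counts in the olaparib tumors (2.01 ± 0.65, adjusted p = 0.577). The defining T cell genes Cd3e (1.02 ± 0.64, adjusted p = 0.582) and Cd8a (0.92 ± 0.57, adjusted p = 0.582) had at most 19.3 normalized counts in vehicle tumors, and 5 and 4 counts in tumor 1517. Cd8a gave no direction that held: its difference was 0 with the common floor and -0.01 after quantile normalization. Against the list, Tcf7, a transcription factor of naive and memory T cells that epithelium can also express, had 167, 306 and 585 against 44.8, 83.8 and 266 (-1.62 ± 0.62, adjusted p = 0.577). Tumor 1521 lay within the vehicle range, and without it the adjusted p was 0.0310. Gata3, which T cells and luminal mammary epithelium share, supplied 14472 of the 17071 summed normalized counts of the list in tumor 1517, and was chosen after its values were seen.

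NK cell receptors gave 13 of 14 higher means (beside 74.6% of all genes), 3 with p under 0.05 (21.4% beside 5.81%) and a median of 0.86. The median was 0.25 without tumor 1517 and 1.66 without tumor 1521, 0.28 after quantile normalization, 0.16 with the common floor and 0.03 with the scaling factor as a covariate, and 10 of the 14 had fewer than 10 counts in tumor 1517. Klra7, an inhibitory receptor from a cluster of near-identical genes, had 1, 4.46 and 1 against 21.4, 94.3 and 2.95 (2.86 ± 0.93, adjusted p = 0.577). The value 1 is the floor of the table, so that the size of this difference depends on the pseudocount. Klrk1, the activating receptor NKG2D, had 19.8, 22.3 and 9.01 against 48.7, 73.4 and 34.2 (1.58 ± 0.61, adjusted p = 0.577), without overlap but with 7 counts in tumor 1517. B cell genes gave 9 of 10 higher means and 0 with p under 0.05, and a median of 0.65, beside 74.6%, 5.81% and 0.45 of all genes. Without tumor 1517, 6 of the 10 were higher and the median was 0.05, and with the scaling factor as a covariate these were 4 and -0.11.

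Of 13 markers of leukocytes in general, 11 had a higher mean and 0 had p under 0.05, with a median of 0.22, beside 0.45 of all genes, that was -0.13 after median scaling and 0.04 without tumor 1517. Ptprc, the pan-leukocyte gene CD45, had 152, 510 and 285 normalized counts in vehicle tumors and 456, 388 and 193 in olaparib tumors (0.21 ± 0.57, adjusted p = 0.901). The groups overlapped throughout. Macrophage and monocyte genes gave 16 of 29 higher means (beside 74.6% of all genes), 0 with p under 0.05 and a median of 0.12, which was -0.23 after median scaling and -0.13 without tumor 1517. The lysosomal marker Cd68 differed by 0.06 ± 0.41 (adjusted p = 0.963), and Apoe by 1.23 ± 0.76 (adjusted p = 0.582), with 42347 in tumor 1517 against 2667 to 11424 in the other 5 tumors.

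Among dendritic cell genes, 18 of 23 had a higher mean and 2 had p under 0.05 (8.70% of the list), shares near the 74.6% and 5.81% of all genes. Their median of 0.38, beside 0.45, was -0.25 after quantile normalization and 0.07 without tumor 1517. Cd207, the langerin gene of Langerhans cells and some dendritic cells, had 15.01, 23.8 and 5.54 normalized counts in vehicle tumors and 444, 62.9 and 21.2 in olaparib tumors (2.64 ± 1.03, adjusted p = 0.577). Tumor 1510 alone was far above the rest, with 228 counts against 6 in tumor 1517. Lamp3, a marker of mature dendritic cells, rested on 14, 7 and 16 counts (1.67 ± 0.67, adjusted p = 0.582). Neutrophil and mast cell genes gave 16 of 21 higher means, near the 74.6% of all genes, and 2 with p under 0.05 (9.52% of the list beside 5.81%), Mpo, the myeloperoxidase gene (1.92 ± 0.85, adjusted p = 0.582), and Fpr2, a formyl peptide receptor (1.25 ± 0.48, adjusted p = 0.577). Their median of 0.68, beside 0.45, was -0.05 after quantile normalization and 0.20 without tumor 1517, and Mpo had 4 counts in tumor 1517.

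**Figure D4:**
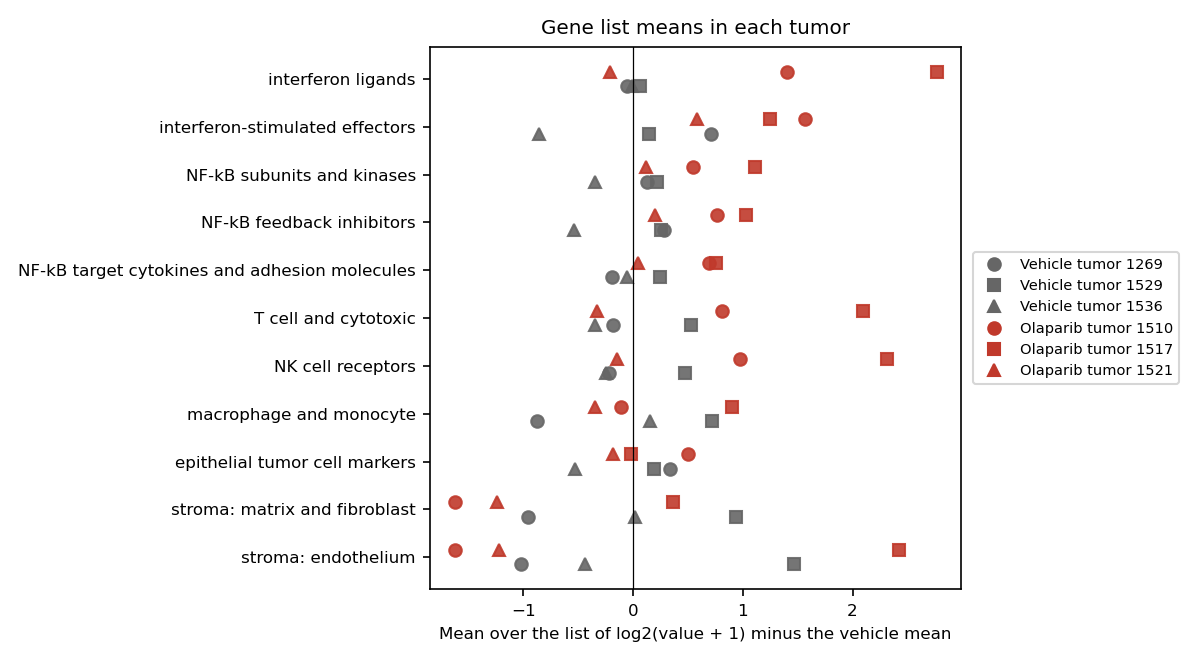
Mean over each gene list of log2(value + 1) minus the vehicle mean, for each vehicle tumor (gray) and olaparib tumor (red), over the genes tested. Tumor 1521 lies within the vehicle range for most lists, at 0.59 against 0.71 in vehicle tumor 1269 for interferon-stimulated effectors, tumor 1510 lies above 0 for the immune lists except macrophage genes, and tumor 1517 reaches 2.43 for endothelium, where tumors 1510 and 1521 lie at -1.62 and -1.22.

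Genes of the tumor cells and of antigen presentation showed no common shift. Of 10 epithelial markers, 5 had a higher mean (beside 74.6% of all genes), with a median of 0.02 beside 0.45, and 1, the mucin gene Muc1, had p under 0.05, with 284, 278 and 81.0 normalized counts in vehicle tumors and 581, 1981 and 275 in olaparib tumors (1.87 ± 0.83, adjusted p = 0.582). Epcam differed by -0.01 ± 0.51 and Cdh1 by 0.11 ± 0.36, the smallest differences among the genes named whatever their value apart from Cd68. Of 17 genes of proliferation, p53 and cell death, 9 had a higher mean and 1 had p under 0.05 (5.88% of the list beside 5.81% of all genes), with a median of 0.06. That gene was Bcl2l1, which encodes the survival protein BCL-XL, at 418, 505 and 411 against 826, 2756 and 516 (1.25 ± 0.54, adjusted p = 0.582), without overlap. Cdkn1a, the p21 gene and a target of p53 and of other pathways, had 671, 727 and 586 against 1771, 1174 and 723 (0.80 ± 0.42, adjusted p = 0.582). Tumor 1521 was within the vehicle range.

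Cdk1, the mitotic kinase, had 97.5, 84.7 and 99.1 normalized counts in vehicle tumors and 37.0, 73.4 and 81.3 in olaparib tumors (-0.62 ± 0.39, adjusted p = 0.582). The groups did not overlap, although the value in tumor 1517 stood for 7 counts. Bid, a proapoptotic gene, had 1486, 1054 and 1033 against 542, 199 and 1050 (-1.28 ± 0.60, adjusted p = 0.582). Trp53 differed by 0.96 ± 0.80 (adjusted p = 0.663), a sign that turned to -0.28 with the scaling factor as a covariate.

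MHC class I and processing genes gave 13 of 19 higher means, 0 with p under 0.05 and a median of 0.29, beside 0.45 of all genes, which was -0.06 after median scaling. Without 1 tumor it ranged from 0.02 (without 1510) to 0.62 (without vehicle tumor 1269), and it was 0.57 without 1521. Tap2, a subunit of the peptide transporter, had 621, 792 and 269 normalized counts in vehicle tumors and 3920, 3280 and 390 in olaparib tumors (1.74 ± 0.85, adjusted p = 0.582). Psmb7, a subunit of the constitutive proteasome, had 3414, 2657 and 2626 against 807, 943 and 3286 (-1.08 ± 0.51, adjusted p = 0.582). For both genes tumors 1510 and 1517 lay outside the vehicle range and tumor 1521 within it. MHC class II genes gave 7 of 11 higher means, 0 with p under 0.05 and a median of 0.16, beside 0.45, which was -0.19 after median scaling, -0.29 without tumor 1510 (with 3 of 11 higher), 0.50 without tumor 1521 and 0.88 with tumor weights. H2-Eb1 differed by 0.91 ± 0.70 (adjusted p = 0.63) and by -0.03 with the scaling factor as a covariate, and H2-DMb2, a chaperone subunit of class II loading, by -0.61 ± 0.39 (adjusted p = 0.582), with no overlap and 8 counts in tumor 1517.

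Among checkpoint genes, 18 of 19 had a higher mean (beside 74.6% of all genes), with 1 higher and 1 lower at p under 0.05 (5.26% of the list each, beside 5.81% and 1.45%). The median was 0.80, beside 0.45, and it was 0.05 without tumor 1517, where 10 were higher, and 1.38 without tumor 1521. The lower gene was Cd276, the B7-H3 ligand of tumor and stromal cells, with 934, 993 and 863 normalized counts in vehicle tumors and 242, 440 and 739 in olaparib tumors (-1.11 ± 0.42, adjusted p = 0.577). It did not overlap between the groups and varied little among vehicle tumors. Complement genes gave 16 of 23 higher means, under the 74.6% of all genes, and a median of 0.40, and without tumor 1517 these were 8 and -0.42. Among them 1 had p under 0.05 (4.35% of the list beside 5.81%), C9, a pore-forming component (2.18 ± 0.71, adjusted p = 0.577), at 15, 6 and 13 counts in the olaparib tumors. Of the remaining chemokines and receptors, 23 of 29 had a higher mean (beside 74.6%) with a median of 0.63, and without tumor 1517 these were 14 and -0.07. There were 2 with p under 0.05 (6.90% of the list beside 5.81%), among them Ccl27a, an epithelial chemokine, at 81.2, 92.2 and 63.7 against 1023, 461 and 72.5 (2.04 ± 0.75, adjusted p = 0.577). The receptor gene Cxcr4 had 9894, 4335 and 3035 against 1882, 461 and 5216 (-1.61 ± 0.80, adjusted p = 0.582).

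The remaining genes with the smallest p-values belonged to no list. Il22ra1, the epithelial receptor chain for interleukin 22, had 8.19, 14.9 and 12.5 normalized counts in vehicle tumors and 146, 147 and 14.1 in olaparib tumors (2.46 ± 0.77, adjusted p = 0.577). Smpd3, a neutral sphingomyelinase, had 12.3, 29.7 and 17.3 against 214, 126 and 17.7 (2.03 ± 0.74, adjusted p = 0.577). In both, tumors 1510 and 1517 were above every vehicle tumor and tumor 1521 was among them.

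Lower genes outside the stroma list included acute-phase, lectin and adhesion genes. Lbp, the lipopolysaccharide-binding protein, had 9793, 6272 and 5144 normalized counts in vehicle tumors and 1255, 1645 and 5278 in olaparib tumors (-1.62 ± 0.61, adjusted p = 0.577). Colec12, a scavenger receptor of the collectin family, had 133, 479 and 346 against 27.3, 136 and 150 (-1.75 ± 0.66, adjusted p = 0.577). The groups overlapped for both genes. Ncam1, a neural adhesion molecule also found on NK cells in man, had 382, 905 and 901 against 244, 377 and 202 (-1.35 ± 0.55, adjusted p = 0.582). St6gal1, which adds sialic acid to glycoproteins, had 1357, 1057 and 1255 against 499, 377 and 948 (-1.11 ± 0.46, adjusted p = 0.582). These last genes did not overlap between the groups.

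The single olaparib tumors can be set against the vehicle range one by one. Tumor 1510 was above all 3 vehicle tumors for 296 of 689 genes (43.0%) and below them for 114 (16.5%). Tumor 1517 was above for 471 (68.4%) and below for 74 (10.7%). Tumor 1521 was above for 74 (10.7%) and below for 188 (27.3%), so that it lay within the vehicle range more often than the other two. Of 31 interferon-stimulated effectors, 21 were above the vehicle range in tumor 1510, 15 in tumor 1517 and 10 in tumor 1521. Of 20 NF-kB target cytokines, 12, 12 and 7 were. Of 14 matrix and fibroblast genes, 10, 4 and 10 were below it, and 1, 6 and 0 were above it.

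The number of genes past the adjusted threshold depended on tumor 1521 and on the weighting of the tumors. Without tumor 1521, 55 genes passed in limma, 50 higher (7.26%) and 5 lower (0.726%), while leaving out any other vehicle or olaparib tumor gave 0. Tumors of the other groups were not left out. Of the genes described above, 24 were among them, namely Il22ra1, Smpd3, Ccl27a, Nfkbia, Klra7, Tyk2, Ifnb1, C9, Mpo, Tap2, Fasl, Cd160, Lamp3, Nfkb2, Fos, Oasl1, Ifna1, Mx2 and Trp53, which were higher, and Psmb7, Tcf7, Cd276, Lbp and Col3a1, which were lower. The other 31, of which the naming rule gave 5, are not described here. That fit rests on 2 olaparib tumors, of which tumor 1517 is the shallow one, and the median of all genes was then 0.81. With a weight estimated for each tumor, 52 genes passed (38 higher, 5.52%, and 14 lower, 2.03%), 25 of them shared with the 55. The weights of tumors 1517 and 1521 were 0.150 and 0.225 and that of tumor 1510 was 1.93, so that this fit rests mainly on tumor 1510, and the estimation of the weights stopped before it reached its convergence tolerance. Without tumor 1517, 0 genes passed, and 20 were higher and 21 lower at unadjusted p under 0.05.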

How the data were processed

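Tumor RNA (100 ng) was counted on an nCounter panel. The authors deposited a signal per gene and tumor. The paper describes background correction in nSolver 4.0, scaling to positive controls and to 8 housekeeping genes, and removal of raw counts under the negative controls. In the deposited values, 0 to 3 genes per tumor were at the lowest value, and tumor 1517 had 216 genes with fewer than 10 counts. Whether such low counts had passed a background cut cannot be told from the values. Groups were taken from the sample titles. Each deposited value is a whole number of counts times 1 factor per tumor, above a floor of 1. At least 99.87% of values per tumor came out whole within 0.01 of a count, and counts were recovered from them. Of 750 symbols, 736 were current in RefSeq, 8 were older and 6 were not matched.

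Limma 3.58.1 (R 4.3.3) was fitted to log2(value + 1) with 1 mean per group over all 12 tumors, on genes that reached a value of 20 in 3 or more tumors, with two-sided tests and Benjamini-Hochberg adjustment over all 689 genes. Adjusted p-values have a threshold of 0.05, and no p-value was computed for a list. With 3 tumors against 3 an exact permutation test cannot go below 0.1, so none is given. On the counts so recovered, the quasi-likelihood test of edgeR 4.0.16 called 0 genes. The count recovery and the limma fit were tested on simulated data. Figures were drawn with matplotlib 3.10.9.

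Named genes were those past the adjusted threshold, the 10 higher and 10 lower with the smallest p, the 4 with the smallest p of each list, and genes chosen by name, with Cfd, Cd36 and Gata3 added after their values were seen. Of the 123 genes this rule gave, the text describes 74. The rest are not reported here by name. Members and the 25 lists were chosen with earlier results of these data known. Alternatives were other pseudocounts, filters, floors, scalings, variance models, covariates, tests and omitted tumors. Promoter sequences and starts are from RefSeq.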

Additional observations from a re-analysis of the deposited data

How the results depend on the processing

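With 3 tumors per group and a shallow olaparib tumor (1517), calls depended on the settings. The 0 genes past the adjusted threshold became 52 with tumor weights. They ranged from 0 to 55 when vehicle and olaparib tumors were left out in turn, with 55 without olaparib tumor 1521. The 40 genes higher at unadjusted p became 18 among genes with at least 20 counts in each tumor, 25 after quantile normalization, 168 with tumor weights, 14 with the 6 tumors alone, 12 with the scaling factor as a covariate, 10 by the methods' t-test and 73 by edgeR with the authors' factors. Leaving out tumors gave 14 (without vehicle tumor 1536 or olaparib tumor 1510) to 203 (without 1521), and 20 without 1517. The 10 lower genes became 21 after quantile normalization, 41 with tumor weights, 2 with the 6 tumors alone, 45 with the covariate, 1 by the methods' t-test and 16 by edgeR with TMM, and ranged from 3 (without vehicle tumor 1529) to 22 (without 1521). They were 5 without vehicle tumor 1536 or olaparib tumor 1510 and 21 without 1517. The 26 genes with all olaparib tumors above became 42 after median scaling, and 36 to 240 with 1 tumor less (74 without 1269, 87 without 1529, 240 without 1521). The 7 with all below became 20 after quantile normalization, and 9 to 40 with 1 tumor less (31 without 1269, 19 without 1536, 16 without 1510, 40 without 1517, 34 without 1521). Fewer tumors make separation easier by construction. The methods' t-test, edgeR and the tumor number series as a block gave 0 genes after adjustment. All 3 olaparib tumors are of the number series of vehicle tumors 1529 and 1536, so that leaving out 1269 is the comparison within it. The cause of the other changes was not tested.

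The median difference of all genes ranged from -0.06 (covariate) to 0.81 (without 1521). Of 64 named genes whose difference exceeded its standard error, 61 kept their sign in the alternatives run. Cd8a came to 0 with a common floor and to -0.0053 after quantile normalization, Trp53 to -0.28 and H2-Eb1 to -0.025 with the covariate. No paired analysis was possible because the groups share no replicate number. In tumor 1517 the 333 genes with at most 20 counts limit what can be read of low genes.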
